A study of Homo sapiens with 12 samples.

Results

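The genes described here are 60 members of the machinery that drives a cell into and through mitosis: the cyclins and cyclin-dependent kinases (CDKs), the phosphatases and kinases that switch CDK1 on and off, the Aurora, Polo-like and NEK kinases, the anaphase-promoting complex (APC/C), proteins of the mitotic chromosome surface and spindle, and the condensins. They were chosen by name, with earlier results of these data known, and each of the 60 symbols matched 1 of the 58735 genes of the count table. Every member passed edgeR's filter on low counts in every comparison, where between 14279 and 15148 genes were tested. The counts came from TIGK cells, a telomerase-immortalized keratinocyte line from human gingiva. All cells were kept at 48 mM glucose, with 500 μM L-arginine (Arg) or with no added Arg (untreated control), for 24 or 48 h. Each of the 4 groups had 3 libraries, labelled A, B and C. The study's methods state that the base medium held no Arg, so the control cells had none added, and the line is a single immortalized culture. Nothing in the labels says that the libraries of a group came from separate cultures, so p-values measure only the spread between these libraries, which may be technical.

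Cells enter the cycle when D-type cyclins with CDK4 and CDK6, and then E-type cyclins with CDK2, release the genes of S phase. Cyclin A2 and the B-type cyclins then build up with CDK1, which WEE1 and PKMYT1 hold inactive by phosphorylation until CDC25 phosphatases remove the block. In mitosis, Aurora and Polo-like kinases build the spindle, condensins compact the chromosomes, and the APC/C with its coactivators CDC20 and FZR1 marks securin and cyclin B for destruction so that the sister chromatids part. Many of these genes are transcribed mainly in G2 and M phase, and their mRNAs are widely used as markers of proliferation in epithelia such as the basal layer of the gingiva.

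The libraries held between 16542243 and 19040964 counts. The members took between 0.802% and 0.887% of them in the 24 h control, between 0.959% and 0.970% in the 24 h Arg group, between 0.817% and 0.874% in the 48 h control, and between 0.819% and 0.895% in the 48 h Arg group. Markers of basal keratinocytes (7 genes, keratins 5 and 14 among them) summed to between 42568 and 54360 CPM (counts scaled to the size of the library) in every library, while endothelial markers (3 genes), leukocyte markers (4 genes, 1 of them at 0 in all libraries) and melanocyte markers (3 genes) summed to at most 3.06. Fibroblast markers (6 genes) summed to between 30.2 and 54.4 CPM at 24 h and between 72.7 and 102.5 CPM at 48 h, and nearly all of this sum came from DCN and COL1A1, since COL1A2 and COL3A1 had 2 and 14 counts in all 12 libraries and PDGFRB and LUM 200 and 281. Control replicate B at 48 h stood apart, with a chi-square per degree of freedom of 20.9 and 23.9 against the other 48 h controls, where all other pairs of replicates gave between 3.66 and 12.5. Results that rest on it are given with and without it.

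Per kilobase of exon, the most abundant member over the 12 libraries was CDC20, the APC/C coactivator of early mitosis, with a mean level of 263 CPM per kb (range 208 to 309). TPX2, which activates Aurora A on the spindle, followed with 139 CPM per kb (118 to 164), and its range overlapped that of UBE2C, the E2 enzyme of the APC/C, with 136 (108 to 187), and that of CCNB1, cyclin B1, with 121 (108 to 148). CDC20 lay above all 3 without overlap. At the other end stood CCNE2, cyclin E2, at 4.25 CPM per kb (3.38 to 4.85), PLK3, a stress-linked Polo-like kinase, at 2.37 (1.09 to 4.44), GAS2L3, a cytoskeletal linker of cytokinesis, at 2.31 (1.47 to 2.98), and CCND2, cyclin D2, at 0.446 (0.130 to 0.830). PRC1, the midzone microtubule bundler, had only 338 counts in all 12 libraries together. It overlaps a second annotated gene on the same strand that took 260 counts, so its value is uncertain. No result is drawn from it alone, but it stays in the counts and medians over the members.

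The first question was whether Arg changed the mRNAs of this machinery after 24 h. At 24 h, 15 of the 60 members were upregulated with Arg and 1, PLK3, was downregulated with an adjusted p below 0.05 (edgeR's quasi-likelihood test, Benjamini-Hochberg adjustment over all tested genes), where 2.79% of all tested genes rose and 3.84% fell. The members that rose were GAS2L3, MKI67, CDCA2, ANAPC2, PKMYT1, TACC3, CDCA8, PLK2, SMC4, INCENP, TOP2A, TPX2, UBE2C, NCAPD2 and SMC2, with log2 fold changes (Arg over control) from 0.29 to 0.73. The median log2 fold change was 0.16 over the members and 0.0030 over all tested genes, and 47 members had a positive value and 13 a negative one (50.5% of all tested genes were positive). All 3 Arg libraries lay above all 3 controls in 30 members and below them in 6, where 12.9% and 13.4% of all tested genes did so. At an unadjusted p under 0.05, 25 members were higher and 3 lower (10.8% and 11.9% of all tested genes). The share of mitochondrially encoded counts also differed between these groups, with 1.20% to 1.30% in the control and 0.624% to 0.802% in the Arg libraries, and its part in the result was not tested. In bulk RNA, more cells in mitosis and more RNA per cell cannot be told apart.

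**Figure D1:**
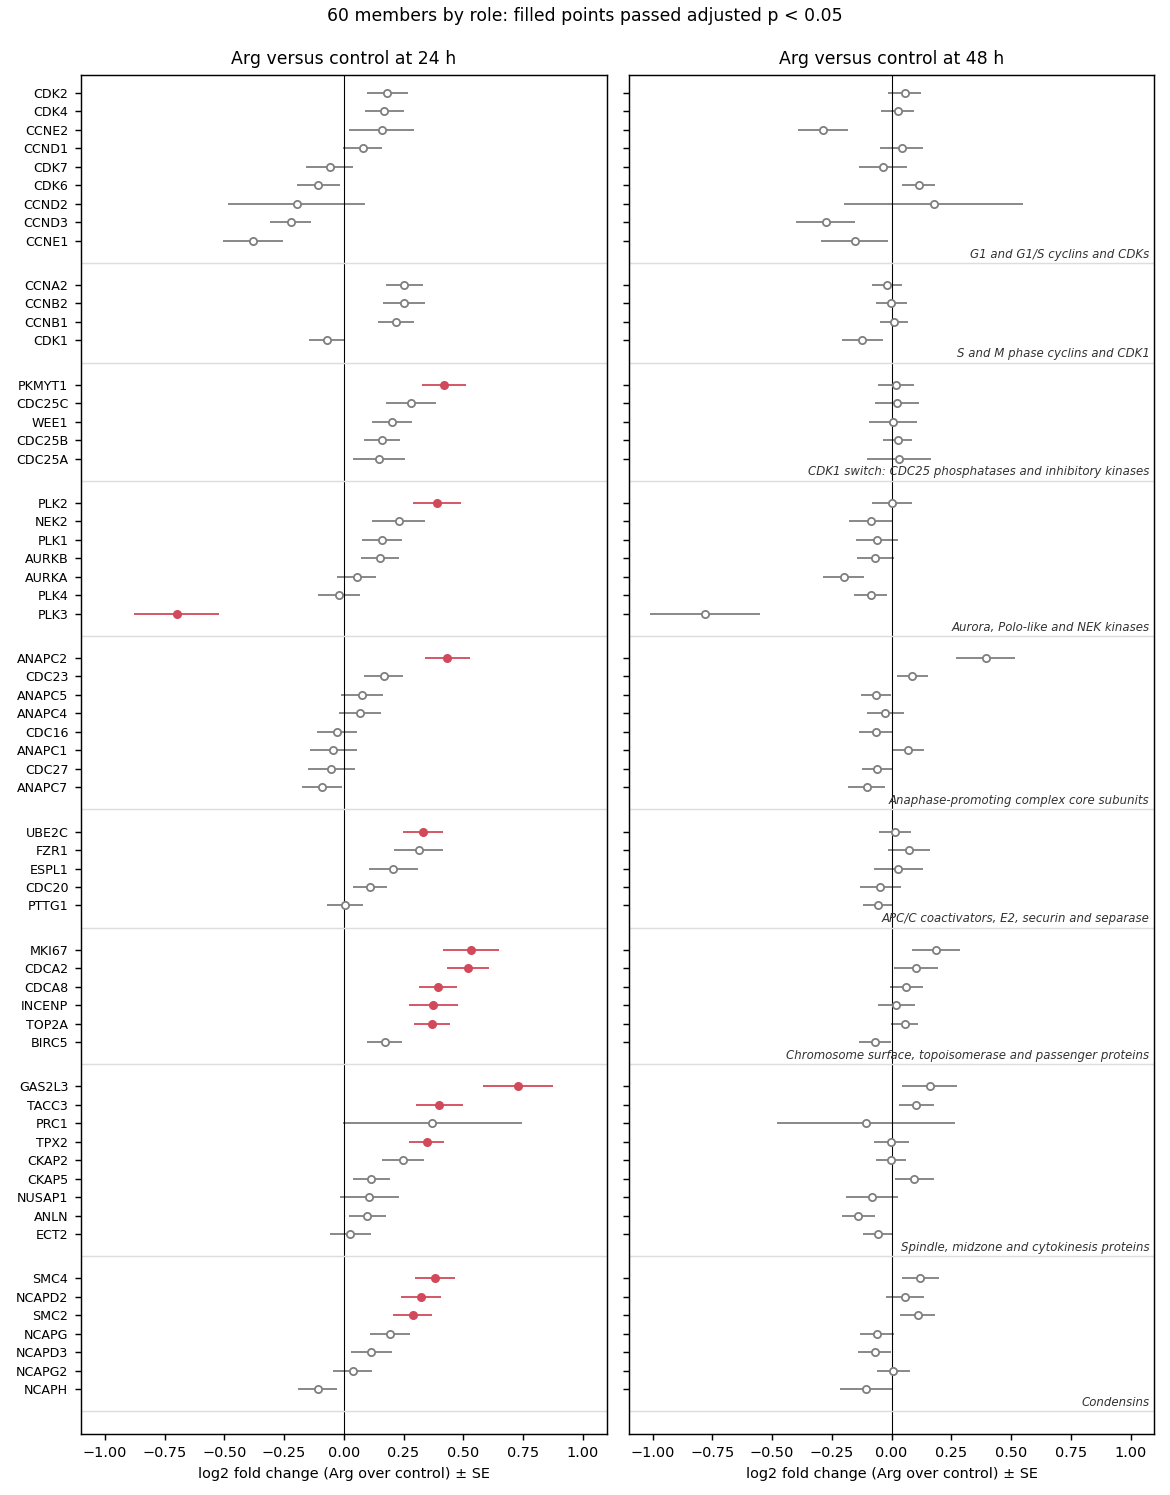
Log2 fold change of each of the 60 members with Arg against the untreated control at 24 h (left) and 48 h (right), with the standard error as a horizontal bar. Members are grouped by role and ordered within a group by their 24 h value, and filled red points passed an adjusted p under 0.05, which 16 members did at 24 h and 0 at 48 h.

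The chromosome surface, topoisomerase and passenger proteins moved most uniformly, with 5 of 6 upregulated, a median log2 fold change of 0.39, and no overlap between Arg and control libraries in any of the 6. MKI67 (ENSG00000148773, chr10:128096659-128126385 in build GRCh38), which coats mitotic chromosomes as the proliferation marker Ki-67, stood at 180.4, 218 and 165 CPM in control replicates A, B and C and at 232, 329.8 and 256 CPM with Arg. Every Arg library lay above every control, but Arg replicate B was far above the other two. Its log2 fold change was 0.53 ± 0.12 (adjusted p = 0.0106). TOP2A (ENSG00000131747, chr17:40388516-40417950), the topoisomerase that untangles sister chromatids, stood at 471, 529.8 and 461 CPM in the control and at 619, 641 and 628 CPM with Arg. The Arg libraries were nearly level and clear of the control, and the log2 fold change was 0.37 ± 0.076 (adjusted p = 0.00696). CDCA2 (ENSG00000184661), which brings a phosphatase to chromosomes as they leave mitosis, stood at 38.6, 40.6 and 38.3 CPM in the control and at 56.9, 56.9 and 54.7 CPM with Arg. Both groups were tight, and the difference was 0.52 ± 0.088 (adjusted p = 0.00189).

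The chromosomal passenger complex guides Aurora B along the chromosomes, and its subunits were measured together. CDCA8, the borealin subunit, stood at 139, 137 and 124 CPM in the control and at 176, 171 and 179 CPM with Arg, a log2 fold change of 0.40 ± 0.079 (adjusted p = 0.0056). INCENP, the scaffold, stood at 82.1, 90.8 and 71.6 CPM and at 91.5, 116 and 109.9 CPM, with a log2 fold change of 0.37 ± 0.10 (adjusted p = 0.0372), and Arg replicate A was barely above the highest control. BIRC5, the survivin subunit, stood at 274, 274 and 269 CPM and at 325, 292 and 305 CPM. Its groups did not overlap either, but the value of 0.17 ± 0.074 did not pass (adjusted p = 0.179). AURKB, the kinase of the complex, gave 0.15 ± 0.08 (adjusted p = 0.275).

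Among the 7 condensin genes, 3 were upregulated, and the 2 SMC subunits that both condensin complexes share were among them. SMC4 stood at 147, 164 and 139 CPM in the control and at 192, 209 and 186 CPM with Arg, a log2 fold change of 0.38 ± 0.084 (adjusted p = 0.0107). SMC2 stood at 120.0, 139.7 and 127 CPM and at 165, 155 and 153 CPM, a change of 0.29 ± 0.082 (adjusted p = 0.0435). NCAPD2, a condensin I subunit, stood at 394, 439 and 356 CPM and at 474, 496 and 519 CPM, a change of 0.32 ± 0.083 (adjusted p = 0.0259). In all 3 the groups did not overlap. The other condensin I subunits differed in sign, with 0.19 ± 0.084 for NCAPG (adjusted p = 0.179) and -0.11 ± 0.082 for NCAPH (adjusted p = 0.454). The condensin II subunits NCAPD3 and NCAPG2 gave 0.12 ± 0.086 and 0.037 ± 0.081, with adjusted p of 0.452 and 0.83.

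Of the 9 spindle, midzone and cytokinesis genes, 3 were upregulated and all 9, the uncertain PRC1 included, had a positive log2 fold change. GAS2L3 (ENSG00000139354, chr12:100573683-100628286) had the largest increase of any member, from 10.3, 13.4 and 10.02 CPM in the control to 20.3, 19 and 16.7 CPM with Arg, a log2 fold change of 0.73 ± 0.15 (adjusted p = 0.00587). Its level was low, but each Arg library lay above each control. TPX2 stood at 454, 492 and 439 CPM and at 590.3, 593 and 579 CPM, a change of 0.35 ± 0.073 (adjusted p = 0.0084). TACC3, which stabilizes spindle fibers, stood at 102, 100.9 and 88.5 CPM and at 109, 141 and 135 CPM, a change of 0.40 ± 0.10 (adjusted p = 0.0216), with Arg replicate A well below the other two. ANLN, the anillin scaffold of the cleavage furrow, overlapped between groups at 0.10 ± 0.076 (adjusted p = 0.473), and ECT2, which triggers furrow contraction, gave the lowest value of the group, 0.027 ± 0.086 (adjusted p = 0.889).

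The cyclins that pair with CDK1 did not pass although their libraries were separated. CCNA2, cyclin A2, stood at 246, 257 and 239.7 CPM in the control and at 319, 276 and 291 CPM with Arg, a log2 fold change of 0.25 ± 0.078 (adjusted p = 0.0612). CCNB1 stood at 319, 302 and 298 CPM and at 379, 339 and 353 CPM, with 0.22 ± 0.076 (adjusted p = 0.0919), and CCNB2, cyclin B2, gave 0.25 ± 0.087 (adjusted p = 0.0908). In these 3 genes every Arg library was above every control. With all libraries kept, CCNA2 passed in 4 of 9 alternative fits (DESeq2 or edgeR, lowest adjusted p over the 9 fits = 0.0324) and CCNB1 in 2 of 9 (lowest adjusted p = 0.0475), while CCNB2 passed in 0 of 9. Of the 6 fits that each left out 1 library, CCNA2 and CCNB2 passed in 1 and CCNB1 in 0. That 1 fit was without control replicate B, where 4.42% of all tested genes rose. CDK1 itself stood at 189, 182 and 184 CPM in the control and at 181, 172 and 176 CPM with Arg, and its log2 fold change of -0.07 ± 0.074 did not pass (adjusted p = 0.616). Among the regulators of CDK1, PKMYT1, the membrane-bound inhibitory kinase, rose from 88.2, 83.6 and 78.7 CPM to 100.3, 123 and 112 CPM, a change of 0.42 ± 0.091 (adjusted p = 0.01). WEE1, the nuclear inhibitory kinase, gave 0.20 ± 0.084 (adjusted p = 0.157), and the activating phosphatases CDC25A, CDC25B and CDC25C gave 0.15 ± 0.11, 0.16 ± 0.077 and 0.28 ± 0.10, with adjusted p of 0.448, 0.226 and 0.111.

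The Polo-like kinases split. PLK2, a kinase of centriole duplication and stress responses, stood at 70.8, 59.5 and 72.3 CPM in the control and at 97.7, 87.5 and 80.5 CPM with Arg, a log2 fold change of 0.39 ± 0.10 (adjusted p = 0.0254). PLK3 (ENSG00000173846, chr1:44800225-44805990) stood at 15.4, 9.77 and 15.1 CPM in the control and at 8.15, 7.75 and 8.92 CPM with Arg, and it fell by 0.70 on the log2 scale (SE 0.18, adjusted p = 0.0254). Control replicate B was much lower than replicates A and C, and closest to the Arg libraries. PLK1, the main mitotic Polo-like kinase, overlapped between groups at 0.16 ± 0.084 (adjusted p = 0.262), as did AURKA, Aurora A, at 0.055 ± 0.081 (adjusted p = 0.734), and PLK4, which starts centriole duplication, at -0.019 ± 0.088 (adjusted p = 0.925).

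The anaphase-promoting complex passed the test in a single core subunit. ANAPC2 (ENSG00000176248, chr9:137174784-137188549), the cullin subunit of its catalytic center, stood at 37.5, 34.5 and 31.8 CPM in the control and at 45.1, 46.9 and 48.3 CPM with Arg, a log2 fold change of 0.43 ± 0.10 (adjusted p = 0.0111). The other 7 core subunits lay between -0.091 (ANAPC7) and 0.17 (CDC23), and CDC27, which docks the coactivators, gave -0.052 ± 0.10 (adjusted p = 0.797). UBE2C rose from 193, 164 and 180.1 CPM to 217, 240.5 and 219 CPM, a change of 0.33 ± 0.083 (adjusted p = 0.0237). CDC20 gave 0.11 ± 0.072 (adjusted p = 0.387), FZR1, the coactivator of late mitosis and G1, gave 0.31 ± 0.10 (adjusted p = 0.0758), and the separase gene ESPL1 gave 0.21 ± 0.10 (adjusted p = 0.241). PTTG1, securin, gave 0.0057 ± 0.077 (adjusted p = 0.974).

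None of the 9 G1 and G1/S cyclins and CDKs passed the test at 24 h, and their median log2 fold change was -0.059. CCND1, cyclin D1, overlapped between groups with 346, 311 and 293 CPM in the control and 334, 356 and 316 CPM with Arg (0.08 ± 0.082, adjusted p = 0.606). CDK2 and CDK4 lay above the control in every Arg library, at 0.18 ± 0.085 and 0.17 ± 0.081 (adjusted p = 0.213 and 0.223). CCNE1, cyclin E1, and CCND3, cyclin D3, lay below it in every Arg library, at -0.38 ± 0.13 and -0.22 ± 0.086 (adjusted p = 0.0839 and 0.13).

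How many members passed at 24 h depended on single libraries. The count of upregulated members was 6 without control replicate A (0.859% of all tested genes rose), 4 without control replicate C (1.03%), 5 without Arg replicate B (1.02%) and 8 without Arg replicate C (0.928%), against 17 without control replicate B (4.42%) and 14 without Arg replicate A (3.29%). With all libraries, 2.79% of all tested genes rose. This share was thus smaller without control replicate A or C or Arg replicate B or C, and larger without control replicate B or Arg replicate A. GAS2L3, CDCA2 and CDCA8 passed in 6 of 6 such fits, TOP2A and TPX2 in 4, MKI67, ANAPC2, PKMYT1, SMC4 and UBE2C in 3, TACC3, PLK2, INCENP and NCAPD2 in 2, and SMC2 and PLK3 in 1. Strand use in counting is not given in the sources used here, and 10 members overlap a gene on the opposite strand that took at least 10% of the member's own counts, among them PKMYT1, SMC4, NCAPD2, CDC25C, CDC23 and CCNE2, so reads of these genes and their antisense partners may not be separated.

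**Figure D2:**
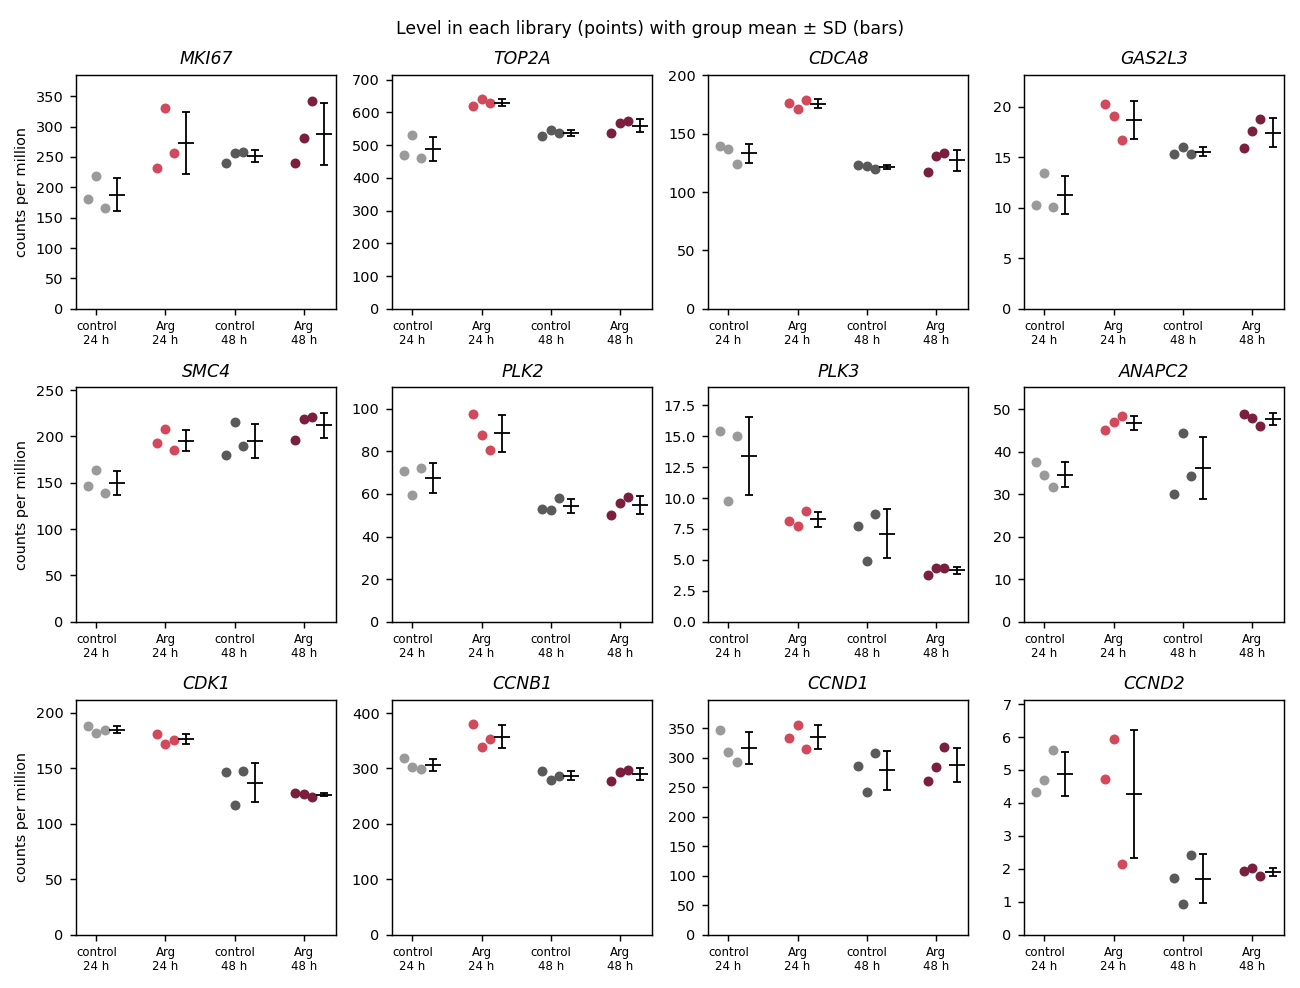
Level of 12 members in each library, in CPM on a linear axis that starts at 0, with points for replicates A, B and C from left to right and a bar for the group mean ± SD (n = 3). The 24 h Arg libraries sit above the 24 h controls in MKI67, TOP2A, CDCA8, GAS2L3, SMC4, PLK2, ANAPC2 and CCNB1 and below them in PLK3 and CDK1, while at 48 h the Arg and control points overlap in all but ANAPC2 and PLK3.

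The promoters of these genes are shown because many mitotic genes carry a CHR element, whose core is TTTGAA and which the MuvB complexes with B-MYB and FOXM1 bind in proliferating cells, often beside CCAAT boxes bound by NF-Y. In the RefSeq promoter windows of build GRCh38.p14, each from 250 bases before to 50 bases after a transcript start, 49 of the 60 members had an entry. TTTGAA was found on either strand in 25 of the 49 (51.0%), against 18.2% of the 27305 genes of the table, and CCAAT in 30 of the 49 (61.2%), against 39.7%. Both were found in 16 of the 49 (32.7%), against 7.26%. TTTGAA was present in 4 of 4 chromosome surface and passenger genes with an entry and in 6 of 7 condensin genes, in 2 of 8 core APC/C subunits and in 0 of 5 G1 and G1/S genes. TTTGAA was present in 7 of the 11 upregulated members with an entry and in 18 of the 37 members that did not pass at 24 h. CCAAT went the other way, with 5 of the 11 and 25 of the 37. Both were present in 5 of the 11 and 11 of the 37. A match is a description of these letters in this window, not of a bound site.

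The CHR core nearest to the start is printed for the 7 upregulated members that had it and for 4 mitotic genes that did not pass at 24 h, each with 12 bases on either side and read on the strand that shows TTTGAA, in capitals. In the direction of the gene, the cores begin between 3 and 151 bases before the start, and the SMC2 core runs across it. The positions are chr10:128126435-128126464 (MKI67), chr17:40418030-40418059 (TOP2A), chr1:37692481-37692510 (CDCA8), chr11:62123989-62124018 (INCENP), chr12:6493945-6493974 (NCAPD2), chr9:104094294-104094323 (SMC2), chr3:160399563-160399592 (SMC4), chr15:59105105-59105134 (CCNB2), chr16:23678848-23678877 (PLK1), chr1:43358904-43358933 (CDC20) and chr5:138331817-138331846 (CDC25C). The printed strand is plus for TOP2A, CDCA8, INCENP, NCAPD2, CCNB2, PLK1 and CDC20 and minus for MKI67, SMC2, SMC4 and CDC25C.
MKI67: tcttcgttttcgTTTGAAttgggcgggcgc
TOP2A: ggccggggtttgTTTGAAtaaaccaatcag
CDCA8: gtgactgtggagTTTGAAttgggtggcggt
INCENP: tgagccttcagtTTTGAAaatcatagtttt
NCAPD2: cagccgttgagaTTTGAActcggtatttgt
SMC2: actatttattccTTTGAAtttcggcgcgag
SMC4: gggatccactaaTTTGAAaaaaagtgcggc
CCNB2: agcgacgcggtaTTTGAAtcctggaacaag
PLK1: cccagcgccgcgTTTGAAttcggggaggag
CDC20: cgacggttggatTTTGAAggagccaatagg
CDC25C: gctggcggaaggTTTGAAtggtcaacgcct

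Longer stretches are printed for 3 members to show how they differ: the 150 bases before the start of MKI67 (chr10:128126424-128126573, minus strand), of CDC20 (chr1:43358831-43358980, plus strand), whose mRNA did not pass at 24 h, and of ANAPC2 (chr9:137188561-137188710, minus strand), which rose with Arg. Capitals mark TTTGAA and CCAAT in either orientation, so that CCAAT on the other strand reads ATTGG. MKI67 held 2 TTTGAA and 2 CCAAT, with the last pair sharing a base, CDC20 held 1 and 2, and ANAPC2 held 0 of either.
MKI67: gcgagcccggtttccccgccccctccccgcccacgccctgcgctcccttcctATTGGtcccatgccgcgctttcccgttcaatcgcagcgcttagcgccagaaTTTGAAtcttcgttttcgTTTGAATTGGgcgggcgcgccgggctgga
CDC20: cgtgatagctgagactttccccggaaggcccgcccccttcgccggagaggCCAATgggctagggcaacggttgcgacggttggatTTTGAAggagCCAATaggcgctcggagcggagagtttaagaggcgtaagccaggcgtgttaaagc
ANAPC2: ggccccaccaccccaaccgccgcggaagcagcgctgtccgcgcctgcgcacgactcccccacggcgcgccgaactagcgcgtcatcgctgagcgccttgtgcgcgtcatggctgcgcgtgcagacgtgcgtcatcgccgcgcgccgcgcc

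The same comparison at 48 h asked whether the 24 h pattern was still seen. No member passed an adjusted p under 0.05 at 48 h with edgeR's quasi-likelihood test, where 0% of all tested genes rose and 0.117% fell, and DESeq2 gave 0 members in either direction too. At an unadjusted p under 0.05, 1 member was higher and 4 were lower (5.94% and 7.49% of all tested genes). The median log2 fold change was 0.0013 over the members and 0.0018 over all tested genes, with 30 members above 0 and 30 below it (50.3% of all tested genes were above). Arg and control libraries were separated in 6 members, 2 higher and 4 lower, where 8.56% and 8.51% of all tested genes were.

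Of the members upregulated at 24 h, ANAPC2 alone was separated in the same direction at 48 h, with 30.0, 44.3 and 34.3 CPM in the control and 48.9, 47.9 and 46.1 CPM with Arg (0.39 ± 0.12, adjusted p = 0.218). The Arg libraries were close together, and control replicate B was much nearer to them than replicates A and C. PLK3 was lower again, with 7.76, 4.88 and 8.74 CPM in the control and 3.81, 4.35 and 4.32 CPM with Arg (-0.78 ± 0.23, adjusted p = 0.202). CCNE2 was the third gene with separated groups and an unadjusted p under 0.05, with 21.2, 20.5 and 21.3 CPM in the control and 16.5, 17.9 and 17.4 CPM with Arg (-0.29 ± 0.10, adjusted p = 0.268). AURKA and CCND3 were the other 2 members with an unadjusted p under 0.05, at -0.20 ± 0.086 and -0.28 ± 0.12 (adjusted p = 0.342 and 0.353).

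The genes that stood out at 24 h had overlapping groups at 48 h. MKI67 stood at 241, 256 and 258 CPM in the control and at 239.5, 281 and 342 CPM with Arg (0.19 ± 0.10, adjusted p = 0.447), and Arg replicate A was the lowest of the 6 libraries while replicate C was the highest. TOP2A gave 0.055 ± 0.056, GAS2L3 0.16 ± 0.12, SMC4 0.12 ± 0.078, PLK2 0.003 ± 0.083 and TPX2 -0.0017 ± 0.073, with adjusted p of 0.699, 0.578, 0.536, 0.99 and 0.994. The cyclins and their kinase were as close, with -0.018 ± 0.064 for CCNA2, 0.011 ± 0.059 for CCNB1, -0.12 ± 0.085 for CDK1 and 0.043 ± 0.091 for CCND1 (adjusted p = 0.93, 0.955, 0.566 and 0.872). CCND2, at few counts, gave 0.18 ± 0.37 (adjusted p = 0.871). For the APC/C, CDC20 gave -0.046 ± 0.086, FZR1 0.074 ± 0.086, PTTG1 -0.056 ± 0.063, CDC27 -0.061 ± 0.065 and ANAPC7 -0.10 ± 0.078 (adjusted p = 0.85, 0.746, 0.732, 0.717 and 0.595). The regulators of CDK1 gave 0.0048 ± 0.10 for WEE1, 0.031 ± 0.13 for CDC25A and 0.023 ± 0.092 for CDC25C, and the rest of the genes followed throughout gave -0.061 ± 0.088 for PLK1, -0.068 ± 0.067 for BIRC5, -0.14 ± 0.071 for ANLN, -0.11 ± 0.11 for NCAPH and 0.0075 ± 0.068 for NCAPG2, with adjusted p between 0.417 (ANLN) and 0.987 (WEE1).

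Without control replicate B at 48 h, 2 members were upregulated with Arg and 6 were downregulated, where 7.76% of all tested genes rose and 8.17% fell, so the shares of members called, 2 and 6 of 60, were below and near those of all genes. ANAPC2 (0.57 ± 0.087, adjusted p = 8.79e-05) and SMC4 (0.20 ± 0.061, adjusted p = 0.0290) were higher in edgeR's test. CCND3 (-0.44 ± 0.062), PLK3 (-0.99 ± 0.20), AURKA (-0.30 ± 0.056), CDK1 (-0.22 ± 0.059), ANLN (-0.21 ± 0.054) and NCAPH (-0.24 ± 0.074) were lower, with adjusted p between 3.01e-05 and 0.0312. The median log2 fold change without control replicate B was -0.038 over the members and 0.0058 over all tested genes. With no filter on low counts, ANAPC2 was higher and CCND3 and PLK3 were lower with all libraries kept. In that fit, 0.73% of all tested genes rose and 1.37% fell. The mitochondrial share was 1.55% in control replicate B, 0.906% and 0.707% in controls A and C, and 1.14% to 1.31% in the Arg libraries.

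**Figure D3:**
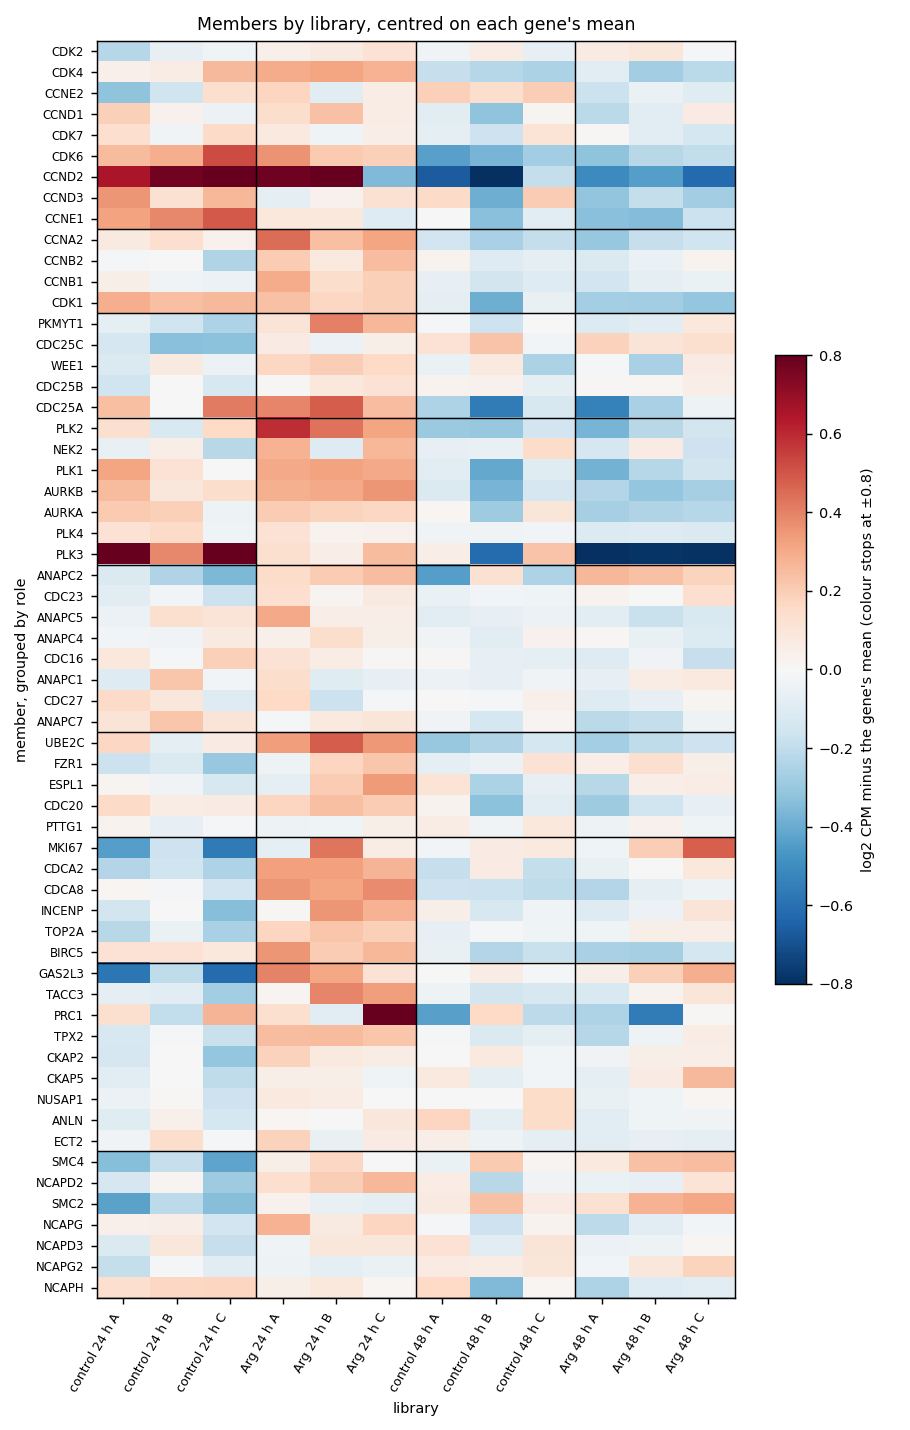
Level of each member (rows, grouped by role) in each of the 12 libraries (columns), as log2 CPM minus the mean of that gene over all libraries, red above and blue below it. The 24 h Arg columns are red in most rows, with a median over the members between 0.137 and 0.140 in the 3 libraries, while the median lies between -0.105 and 0.0019 in the other 9, and control 48 h replicate B departs from replicates A and C in many rows.

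Between 24 and 48 h, control cells changed in both directions. In the control, 5 members were higher at 48 h than at 24 h and 13 were lower, where 9.9% of all tested genes rose and 10% fell, and the median log2 fold change (48 over 24 h) was -0.035, with 27 members above 0 (51.5% of all tested genes). The libraries of the 2 times did not overlap in 8 members that were higher and 18 that were lower (19.2% and 19.7% of all tested genes). With scaling to library size only, 5 members were higher and 9 lower (12.8% and 6.98% of all tested genes), and with a correction for exonic length 4 and 14 (8.25% and 12.9%). Of the fibroblast markers, DCN (21.9 to 39.0 CPM at 24 h and 60.6 to 76.1 CPM at 48 h) and COL1A1 (10.8 to 13.8 and 21.6 to 27.0 CPM) were also higher in every control library at 48 h, while PDGFRB overlapped between the times (0.927 to 1.14 and 0.622 to 1.23 CPM), and their part in these changes was not tested. The members that fell belonged largely to the cyclins and kinases. CCND2 fell by 1.52 on the log2 scale (SE 0.32, adjusted p = 0.00846), from 4.33, 4.69 and 5.62 CPM to 1.73, 0.934 and 2.41 CPM, without overlap but from only 684 counts in all 12 libraries. CDK6, a partner of the D-type cyclins, fell from 155, 159 and 187 CPM to 96.3, 100.3 and 107 CPM (-0.72 ± 0.089, adjusted p = 0.00126). PLK3 gave -0.91 ± 0.23, CCNE1 -0.53 ± 0.13, CDC25A -0.53 ± 0.13, CDK1 -0.43 ± 0.092, AURKB -0.36 ± 0.089, CDK4 -0.34 ± 0.08, PLK1 -0.34 ± 0.10, PLK2 -0.31 ± 0.10, UBE2C -0.28 ± 0.082, CCNA2 -0.28 ± 0.069 and BIRC5 -0.26 ± 0.071, with adjusted p between 0.00897 (CDK1) and 0.0419 (PLK2).

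The members that rose in the control were GAS2L3, SMC2, MKI67, SMC4 and CDC25C, 4 of which were also among those upregulated by Arg at 24 h. Both comparisons share the 24 h control libraries. MKI67 went from 180.4, 218 and 165 CPM to 241, 256 and 258 CPM (0.42 ± 0.10, adjusted p = 0.0115). SMC2 went from 120.0, 139.7 and 127 CPM to 169.8, 189.9 and 169 CPM (0.45 ± 0.084, adjusted p = 0.00493), and SMC4, GAS2L3 and CDC25C gave 0.38 ± 0.09, 0.47 ± 0.15 and 0.38 ± 0.11 (adjusted p = 0.0137, 0.0428 and 0.0296). Several mitotic genes did not pass, among them TOP2A (0.14 ± 0.073), TPX2 (0.043 ± 0.071), CCNB1 (-0.094 ± 0.068), CDC20 (-0.22 ± 0.088), AURKA (-0.17 ± 0.10) and CCND1 (-0.18 ± 0.10), with adjusted p of 0.186, 0.709, 0.353, 0.104, 0.267 and 0.202. These counts fell to 1 higher and 3 lower without control 24 h replicate A (2.85% and 2.74% of all tested genes), to 1 and 4 without replicate C (3.34% and 3.36%), and to 3 and 10 without control 48 h replicate A (6.17% and 6.22%). Without control 48 h replicate B, 4 were higher and 11 lower (7.81% and 8.6%).

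With Arg, the same interval was compared in the other 6 libraries. Of the 60 members, 28 were lower at 48 h than at 24 h and 1 was higher, where 14% of all tested genes fell and 14.3% rose. The median log2 fold change was -0.21 over the members and 0.00092 over all tested genes, with 8 members above 0 and 52 below it (50.1% of all tested genes were above). The libraries of the 2 times did not overlap in 3 members that were higher and 35 that were lower (21.1% and 21.2% of all tested genes). With scaling to library size only, 22 were lower and 2 higher (10.1% and 17.8% of all tested genes), and with a correction for exonic length 31 and 1 (16.8% and 11%). The mitochondrial share was 0.624% to 0.802% in the Arg libraries at 24 h and 1.14% to 1.31% at 48 h, and the fibroblast markers summed to between 30.2 and 41.1 CPM and between 72.7 and 100.3 CPM. Their part in these changes was not tested. All 4 genes of the cyclin A2, cyclin B and CDK1 group fell. CCNA2 went from 319, 276 and 291 CPM to 189, 206 and 209 CPM (-0.55 ± 0.071, adjusted p = 1.08e-05), CCNB1 from 379, 339 and 353 CPM to 277, 293 and 298 CPM (-0.30 ± 0.066, adjusted p = 0.00175), and CDK1 from 181, 172 and 176 CPM to 127, 127 and 124 CPM (-0.48 ± 0.066, adjusted p = 2.33e-05). In each, the libraries of the 2 times did not overlap.

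The mitotic kinases fell in 5 of 7 cases. PLK2 gave -0.69 ± 0.087, AURKB -0.58 ± 0.069, PLK1 -0.56 ± 0.068 and AURKA -0.43 ± 0.063, with adjusted p of 8.01e-06, 4.58e-06, 5.94e-06 and 4.82e-05, and PLK3 gave -0.99 ± 0.18 (4.15e-04). Of the G1 and G1/S genes, 5 of 9 fell, with CCND2 at -1.15 ± 0.33, CDK6 at -0.50 ± 0.072, CDK4 at -0.49 ± 0.071, CCND3 at -0.29 ± 0.074 and CCND1 at -0.22 ± 0.074 (adjusted p between 3.95e-05 for CDK6 and 0.0323 for CCND1). UBE2C went from 217, 240.5 and 219 CPM to 142, 149.6 and 154 CPM (-0.60 ± 0.069, adjusted p = 2.89e-06), and CDC20 gave -0.37 ± 0.066 (2.86e-04). BIRC5 (-0.50 ± 0.067), CDCA8 (-0.46 ± 0.07), CDCA2 (-0.30 ± 0.081) and TOP2A (-0.17 ± 0.06) fell too, with adjusted p between 1.93e-05 for BIRC5 and 0.0406 for TOP2A. MKI67 overlapped between the times (0.077 ± 0.11, adjusted p = 0.662). SMC2 was the only member higher at 48 h, from 165, 155 and 153 CPM to 175, 196 and 200.3 CPM (0.27 ± 0.071, adjusted p = 0.00661).

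The 2 declines were measured in separate libraries. Of the 13 members lower over time in the control, 12 (92.3%) were also lower with Arg, which is 42.9% of the 28 lower with Arg. CCNE1 was the exception, at -0.53 ± 0.13 in the control and -0.30 ± 0.13 with Arg (adjusted p = 0.0182 and 0.095). Of all tested genes, 10% fell in the control and 14% with Arg, but the share lower in both was not computed. Whether this overlap is particular to the members is therefore not known. Of the 28, 9 had been upregulated by Arg at 24 h, and these comparisons share the 24 h Arg libraries.

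**Figure D4:**
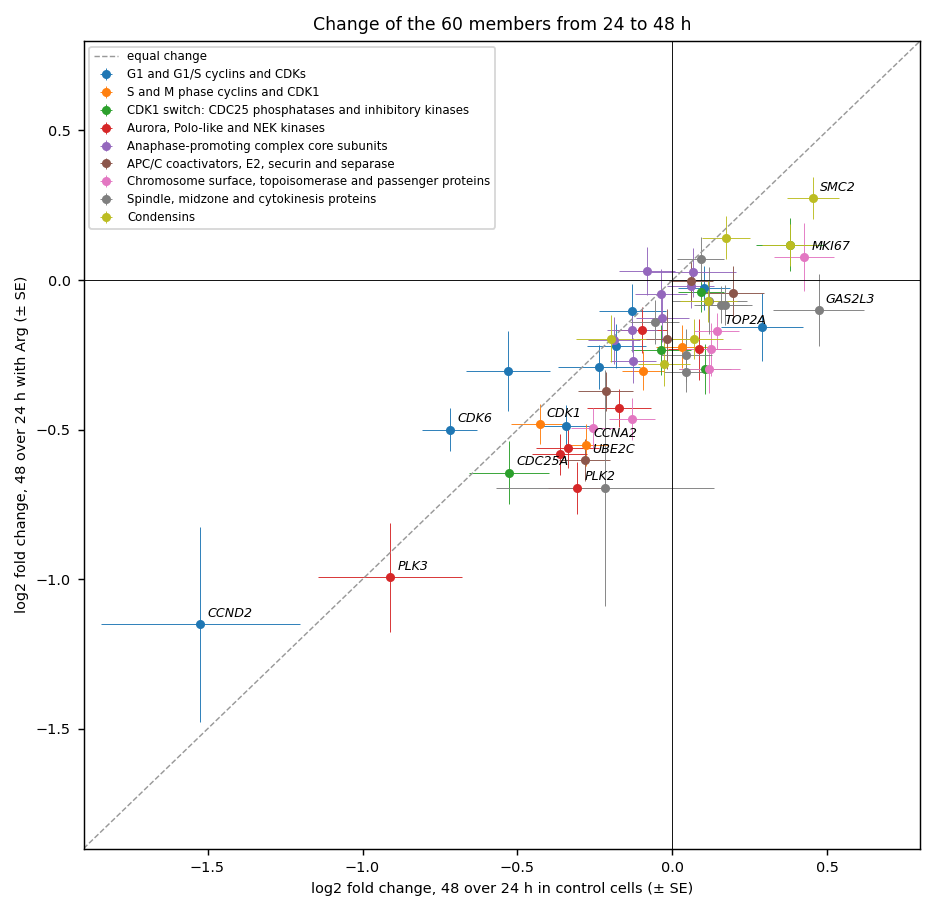
Log2 fold change from 24 to 48 h of each member in control cells (horizontal axis) and with Arg (vertical axis), with standard errors as bars and colors for the role groups. Most points lie below the dashed line of equal change, as 54 of 60 members had a lower value with Arg, while CCND2 and PLK3 fell most on both axes.

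Whether the effect of Arg itself differed between 48 and 24 h was tested as an interaction over all 12 libraries. No member passed an adjusted p under 0.05 with edgeR's quasi-likelihood test, where 0.0132% of all tested genes were higher and 0% lower, and DESeq2 gave 0 members too. The interaction was negative in 54 of 60 members, that is, the effect of Arg was smaller or more negative at 48 h, with a median of -0.19 against -0.0057 over all tested genes. At an unadjusted p under 0.05, 20 members were lower and 0 higher, where 3.8% and 3.06% of all tested genes were. With 1 library left out at a time, the lower count ran from 10 (without Arg 48 h replicate A) to 24 (without control 48 h replicate B). The share of all tested genes at this criterion was not computed for those fits. TOP2A had the lowest unadjusted p, with an interaction of -0.31 ± 0.092 (adjusted p = 0.452 in edgeR's test). TPX2 gave -0.35 ± 0.10, CDCA2 -0.41 ± 0.12, PKMYT1 -0.40 ± 0.12, CDCA8 -0.33 ± 0.10, GAS2L3 -0.57 ± 0.19, UBE2C -0.32 ± 0.11 and PLK2 -0.38 ± 0.13, with adjusted p between 0.456 (TPX2) and 0.606 (PLK2). A difference between the 2 times was therefore not established for any single member. Among role groups, the chromosome surface and passenger genes had the most negative median, -0.34 with 6 of 6 negative, and the G1 and G1/S genes had a median of -0.036 with 5 of 9 negative. PLK3 and ANAPC2 had separated Arg and control libraries in the same direction at both times. Their interactions were -0.08 ± 0.30 and -0.039 ± 0.16 (adjusted p = 0.984 and 0.985). A small interaction is partly set by picking genes for such separation.

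A further 42 genes of the same pathway, which are not members, were counted for comparison. At 24 h, 5 were upregulated by Arg and 1 was downregulated (2.79% and 3.84% of all tested genes), and their median log2 fold change was 0.0049. Of the 10 kinase cofactors and spindle proteins, 4 rose, with CIT, the citron kinase of cytokinesis, at 0.47 ± 0.10 (adjusted p = 0.0111) and BORA, an activator of Aurora A and PLK1, at 0.44 ± 0.11 (adjusted p = 0.0252). Among 9 other CDK partners, CCNF, cyclin F, rose (0.36 ± 0.09, adjusted p = 0.0209) and CCNH, the cyclin of CDK7, fell (-0.48 ± 0.14, adjusted p = 0.0468). The 7 genes of the MuvB, B-MYB and FOXM1 factors, the 9 other APC/C subunits and regulators, and the 7 genes of the Greatwall and PP2A-B55 branch had no call at 24 h. At 48 h none of the 42 passed in edgeR's test or in DESeq2. At an unadjusted p under 0.05, edgeR gave 2 higher and 4 lower (5.94% and 7.49% of all tested genes). Over time in the control, 3 rose and 7 fell, where 9.9% and 10% of all tested genes did. In DESeq2, 10 fell, where 11.3% of all tested genes did. With Arg, where 14.3% of all tested genes rose and 14% fell, 2 rose and 19 fell, and those that fell included the transcription factors FOXM1 (-0.44 ± 0.076, adjusted p = 2.17e-04) and MYBL2 (-0.32 ± 0.07, adjusted p = 0.00216) and the APC/C partner UBE2S (-0.62 ± 0.08, adjusted p = 1.08e-05).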

How the data were processed

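Poly(A) RNA of TIGK cells was sequenced in 12 libraries. Per the study's methods and the labels, the authors used fastp to filter the reads, STAR to map them (build GRCh38/hg38) and featureCounts for the counts of each gene (versions, annotation release and strand setting are not given in the sources used here). They deposited raw, whole-number counts without normalization, of which 0 columns were left out.

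The labels gave each library its treatment and time. Each pair of groups was compared with edgeR 4.0.16 (TMM, filterByExpr, quasi-likelihood test) in R 4.3.3, fitted on the whole table, with Benjamini-Hochberg adjustment over all tested genes and a threshold of 0.05. Genes with an unadjusted p under 0.05 were also counted. The difference between the times was tested as an interaction term with the 4 groups fitted together. The SE is the absolute log2 fold change divided by the square root of F. CPM were scaled by TMM-normalized library sizes. An exact permutation test of 3 against 3 libraries cannot give a p below 0.1. The scripts were tested on simulated data.

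The members, role groups and lists were chosen with earlier results of these data known. Named members are those passing the test (at most 10 a direction by size), 20 fixed members and the highest and lowest of each role group, and others named were chosen after their values were seen. Promoter windows came from RefSeq (GRCh38.p14). Alternatives were DESeq2 1.42.0, its size factors, library size only, no filter, a minimum of 10 counts per library, a joint fit of the 4 groups, the replicate block, a lowess correction for exonic length (span 0.3) with and without the block, and leaving out each library in turn.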

Additional observations from a re-analysis of the deposited data

How the results depend on the processing

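With all libraries kept, the counts of members passing an adjusted p under 0.05 at 24 h stayed between 14 and 17 higher and at 1 lower. Of all tested genes, 2.09% to 3.46% rose and 2.86% to 4.52% fell in these fits. No alternative gave a member call for the difference between the times. With no filter on low counts, 1 member was higher and 2 were lower at 48 h (0.73% and 1.37% of all tested genes). Leaving out 1 library each gave 4 to 17 higher and 0 to 2 lower at 24 h (0.859% to 4.42% and 1.59% to 6.02% of all tested genes). At 48 h it gave 0 to 2 higher and 0 to 6 lower (0% to 7.76% and 0.0336% to 8.17%). From 24 to 48 h in the control it gave 1 to 5 higher and 3 to 13 lower (2.85% to 10.7% and 2.74% to 11.6%). The median log2 fold change of the members then lay between 0.146 and 0.184 at 24 h and between -0.0383 and 0.0219 at 48 h. Over time, it lay between -0.0746 and -0.00221 in the control and between -0.256 and -0.172 with Arg. For the difference between the times, it lay between -0.223 and -0.170. Over time in the control, this median was -0.035, 0.025 with library size only, -0.094 with the exonic length correction and -0.092 with the replicate block and that correction. Over time with Arg, it was -0.21, -0.15 with library size only, -0.24 with the length correction and -0.24 with the replicate block and the correction. Members higher numbered 2 with library size only (17.8% of all tested genes) and 0 with the block and the correction (10.1%). The causes were not tested.

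Deviations of libraries with the same letter correlated between -0.061 and 0.135. With groups of 3, these values cannot decide whether the letters pair the libraries. With the replicate block, members higher and lower were 14 and 1 at 24 h (2.65% and 3.82% of all tested genes). At 48 h they were 0 and 0 (0.295% and 0.968%). These counts were 5 and 15 over time in the control (13.6% and 14.4%) and 1 and 28 over time with Arg (13.4% and 12.9%). Depth was similar in all libraries, and genes with few counts (PLK3, CCND2, GAS2L3) are limited most by it.

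Of the values of single named members, 28 changed sign with all libraries kept. At 48 h, the length correction without and with the replicate block gave 0.025 and 0.023 for CCNA2, -0.037 and -0.039 for WEE1, 0.017 and 0.018 for CDC20, 0.0044 and 0.0039 for PTTG1, 0.025 and 0.020 for TPX2, and -0.015 and -0.016 for NCAPG2, while TPX2 gave 0.0010 with library size only and 0.0015 with all 12 libraries in a single model. Over time in the control, library size only gave 0.022 for WEE1 and 0.021 for CDC27. Over time with Arg, it gave 0.0097 for CDC27, 0.054 for PTTG1 and 0.031 for CDK2, PTTG1 gave 7.76e-04 with no filter, and the length correction without and with the replicate block gave 0.033 and 0.033 for PTTG1, -0.11 and -0.11 for MKI67, -0.17 and -0.17 for ANAPC1, and -0.040 and -0.045 for CKAP5.

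Leaving out 1 library at a time let these values cross 0: at 24 h AURKA from -0.026 to 0.098, CDC27 from -0.14 to 0.025, PTTG1 from -0.025 to 0.027, NCAPG2 from -0.0098 to 0.080 and ECT2 from -0.040 to 0.084. At 48 h they were CCND1 from -0.046 to 0.12, CCNA2 from -0.045 to 0.023, CCNB1 from -0.0080 to 0.038, CDC25C from -0.040 to 0.087, WEE1 from -0.080 to 0.094, PLK2 from -0.044 to 0.060, CDC20 from -0.14 to 0.036, TPX2 from -0.065 to 0.072, NCAPG2 from -0.038 to 0.056, CDC25A from -0.093 to 0.15, NCAPH from -0.24 to 0.0081 and CCND2 from -0.12 to 0.52. Over time in the control they were WEE1 from -0.12 to 0.045, CDC27 from -0.12 to 0.014, ANAPC2 from -0.11 to 0.19 and CCNB2 from -0.051 to 0.067, and over time with Arg CDC27 from -0.13 to 0.039, PTTG1 from -0.024 to 0.026, MKI67 from -0.064 to 0.24, ANAPC1 from -0.014 to 0.11, CDK2 from -0.047 to 0.0054 and CKAP5 from -0.022 to 0.14.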
